A study of Arabidopsis thaliana with 6 samples.

Results

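The genes described here are 3 lipase and esterase genes of Arabidopsis thaliana, out of 13286 loci that had a named probe set matched to a single locus. They are AT1G02660, a plastid lipase read by probe set 260915_at, AT1G74460, a GDSL lipase read by 260234_at, and CXE18 (locus AT5G23530), a carboxylesterase read by 249794_at. They were chosen by their log2 signals in these same arrays, which did not overlap between rns2-2 and Col-0 seedlings, so their values in this contrast are given as a description and without a test. All 3 members were measured, each by 1 probe set, and no filter on dim signals was used.

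RNA from 10-day-old seedlings was hybridised to the ATH1 array of Affymetrix, on which each transcript is read by a set of short oligonucleotide probes. There were 3 arrays of rns2-2, a mutant named for the RNase T2 ribonuclease RNS2 and held in the Col-0 background, and 3 arrays of wild type Col-0. All plants were raised on MS-agar without any other treatment named in the labels, and the design text mentions 20 seedlings without saying how many went into each sample. The labels name a single mutant allele and call the samples of each genotype independent biological ones. The comparison asked which transcripts differ when this ribonuclease gene is mutated.

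Lipases and esterases cut ester bonds, and most plant members have a serine at the active site. Class 3 lipases of the plastid release fatty acids from membrane glycerolipids, which supplies acyl groups for storage oil and for jasmonate. GDSL lipases are a large plant family, many of them secreted, with known roles in the cutin and suberin polyesters of cell surfaces and in defence. Carboxylesterases of the CXE family act on small esters, and the same family holds the gibberellin receptors GID1A, GID1B and GID1C, which bind the hormone and do not cut esters.

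Whole seedlings mix tissues, and a change in the number of cells of a type cannot be told apart from a change in RNA per cell. The arrays held signal for both root and shoot. PYK10, a beta-glucosidase abundant in roots, averaged 12.74 ± 0.14 log2 units in the rns2-2 arrays, against 12.54 ± 0.16 in the Col-0 arrays (SD, n = 3 each). RCA, the Rubisco activase of green tissue, averaged 13.83 ± 0.27 in the rns2-2 arrays, against 13.92 ± 0.03 in the Col-0 arrays (SD, n = 3 each). EXPA18, another root marker, averaged 6.01 ± 0.49 in the rns2-2 arrays, against 5.77 ± 0.27 in the Col-0 arrays (SD, n = 3 each). EXPA7, a further root marker, averaged 5.98 ± 0.85, against 5.87 ± 0.42 (SD, n = 3 each). The means of EXPA18 and EXPA7 lay below the array medians. For EXPA7, rns2-2 replicate 1 stood 1.37 log2 units above the mean of rns2-2 replicates 2 and 3. Of the marker lists, 3 of 5 root markers and 1 of 10 shoot markers had a named probe set, none of the 8 epidermis markers had one, and the 4 measured markers all overlapped between genotypes. The part of tissue makeup in the results below was not tested beyond these markers. Replicates 2 and 3 lay close together in each genotype, with an SD of their log2 difference across probe sets of 0.31 in rns2-2 and 0.20 in Col-0. Replicate 1 stood apart, with SDs of 0.59 and 0.61 from the other rns2-2 arrays and of 0.58 and 0.58 from the other Col-0 arrays. Both replicate 1 arrays lay nearer to every array of the other genotype than to those of their own. The SDs from the other genotype were 0.54 to 0.58 for rns2-2 replicate 1 and 0.51 to 0.56 for Col-0 replicate 1. A measure of RNA integrity, the mean 3' minus 5' log2 difference over 6 pairs of control probe sets for actin, GAPDH and ubiquitin, was 1.49, 1.93 and 2.44 in rns2-2 replicates 1, 2 and 3, against 3.01, 1.98 and 2.26 in those of Col-0. The lowest and the highest of these values thus both fell on replicate 1, of rns2-2 and of Col-0.

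AT1G02660, the plastid lipase, had the largest difference of the 3 genes and was lower in rns2-2. Its log2 signals were 7.70, 6.997 and 7.16 in rns2-2 replicates 1, 2 and 3, against 9.03, 9.66 and 9.47 in those of Col-0. Every rns2-2 array lay below every Col-0 array, and replicate 1 was the array nearest to the other genotype on both sides. The means were 7.29 ± 0.37 for rns2-2, against 9.38 ± 0.32 for Col-0 (SD, n = 3 each), a log2 difference of -2.10 (SE 0.24 from limma), or 4.28-fold lower. The space between the highest rns2-2 array and the lowest Col-0 array was 1.32 log2 units, or 2.504-fold. Among the 9 pairings of an rns2-2 array with a Col-0 array, the log2 difference ran from -2.66 to -1.32. The replicate 1 arrays gave the smaller end of that range, and the replicate 2 arrays the larger.

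AT1G74460, the GDSL lipase, was higher in rns2-2. Its log2 signals were 7.80, 7.33 and 7.64 in rns2-2 replicates 1, 2 and 3, against 6.66, 6.40 and 6.41 in those of Col-0. The genotypes did not overlap, and replicate 1 was the highest array within each. The means were 7.59 ± 0.24 for rns2-2, against 6.49 ± 0.15 for Col-0 (SD, n = 3 each), a log2 difference of 1.10 (SE 0.16), or 2.15-fold. The lowest rns2-2 array stood 0.67 log2 units, or 1.59-fold, above the highest Col-0 array. In Col-0 the signal was near the array median, from 0.21 log2 units below it to 0.07 above it, while in rns2-2 it was 0.68 to 1.24 above. No detection calls were used, so how much of the Col-0 signal was background was not measured.

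CXE18, the carboxylesterase, was also higher in rns2-2. Its log2 signals were 7.17, 7.73 and 7.62 in rns2-2 replicates 1, 2 and 3, against 6.43, 6.43 and 6.46 in those of Col-0. The Col-0 arrays were nearly equal, within 0.03 log2 units of each other, whereas the rns2-2 arrays spanned 0.56, with replicate 1 lowest. The means were 7.51 ± 0.30 for rns2-2, against 6.44 ± 0.02 for Col-0 (SD, n = 3 each), a log2 difference of 1.07 (SE 0.16), or 2.10-fold. The lowest rns2-2 array stood 0.71 log2 units, or 1.64-fold, above the highest Col-0 array. All Col-0 values lay below their array medians, by 0.08 to 0.17 log2 units, and how much of them was background was not measured. All rns2-2 values lay above theirs, by 0.61 to 1.08.

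**Figure D1:**
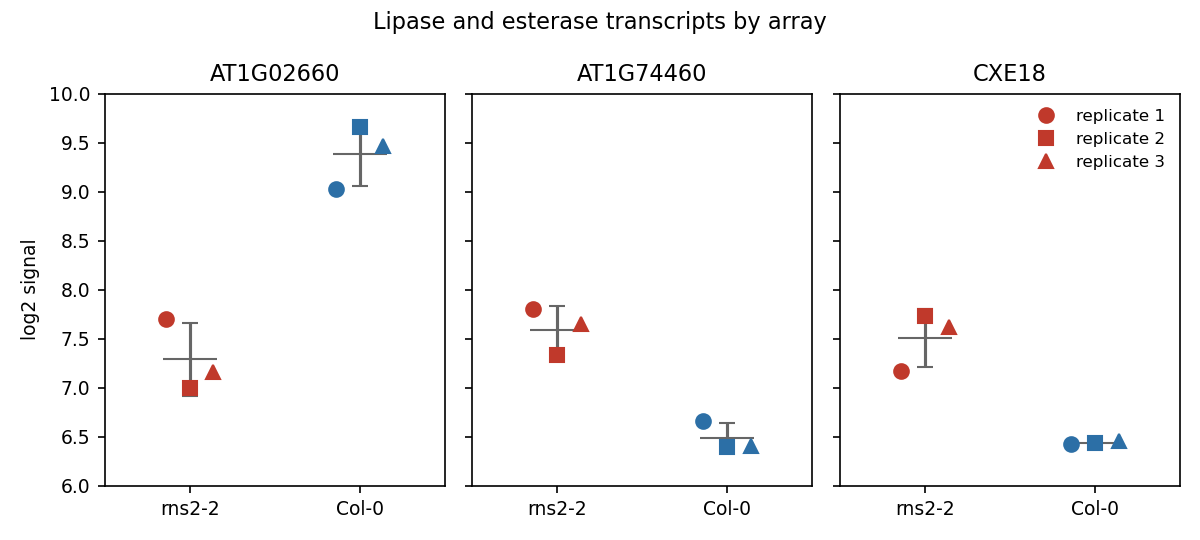
Log2 signal (vertical axis) of AT1G02660, AT1G74460 and CXE18 in the 3 rns2-2 and 3 Col-0 arrays. Symbols give the replicate number, and the grey line and bar the mean and SD. AT1G02660 is lower in rns2-2 (7.29 against 9.38 in Col-0) and the other genes are higher (7.59 against 6.49 and 7.51 against 6.44), with no overlap of genotypes and with the 3 Col-0 points of CXE18 nearly level.

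All 3 genes were free of overlap by the way they were chosen, and nothing is read from that count. Over the whole table, 18.5% of 22746 probe sets had no overlap between genotypes, 7.23% with rns2-2 higher and 11.2% with rns2-2 lower. With limma and Benjamini-Hochberg adjustment over the whole table, 0.0044% of probe sets passed 0.05, which is 1 probe set. The counts of relatives below are set beside this share.

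The within-genotype spread differed among the 3 genes. The pooled SD was 0.35 log2 units for AT1G02660, larger than that of 77.2% of all probe sets. It was 0.20 for AT1G74460 and 0.21 for CXE18, near the middle of the table at the 51.0 and 53.6 percentiles. AT1G02660 was thus the more variable gene, but its difference was also wider. The differences between genotypes came to 6.04, 5.53 and 5.12 pooled SDs for AT1G02660, AT1G74460 and CXE18. Genes chosen for groups without overlap tend to have large ratios of this kind, so these are description only. The wider genotype was rns2-2 for all 3, most clearly for CXE18.

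The replicate 1 arrays, which stood apart across the table, departed from their genotype in a different way for each gene. For AT1G02660 rns2-2 replicate 1 stood 0.62 log2 units above the mean of rns2-2 replicates 2 and 3, and Col-0 replicate 1 stood 0.54 below the mean of the other Col-0 arrays, so both moved toward the other genotype. For AT1G74460 both were above their partners, by 0.32 in rns2-2 and 0.25 in Col-0. For CXE18 rns2-2 replicate 1 was 0.50 below its partners, and Col-0 replicate 1 differed from its own by -0.02. With replicates 2 and 3 alone, the log2 differences were -2.48 for AT1G02660, 1.08 for AT1G74460 and 1.23 for CXE18, about as large as, or larger than, those with all arrays. Since the genes were chosen for groups that do not overlap, no choice of arrays could turn the direction. The sizes come from the same values, with the space between genotypes as their lower bound, so they are description only.

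**Figure D2:**
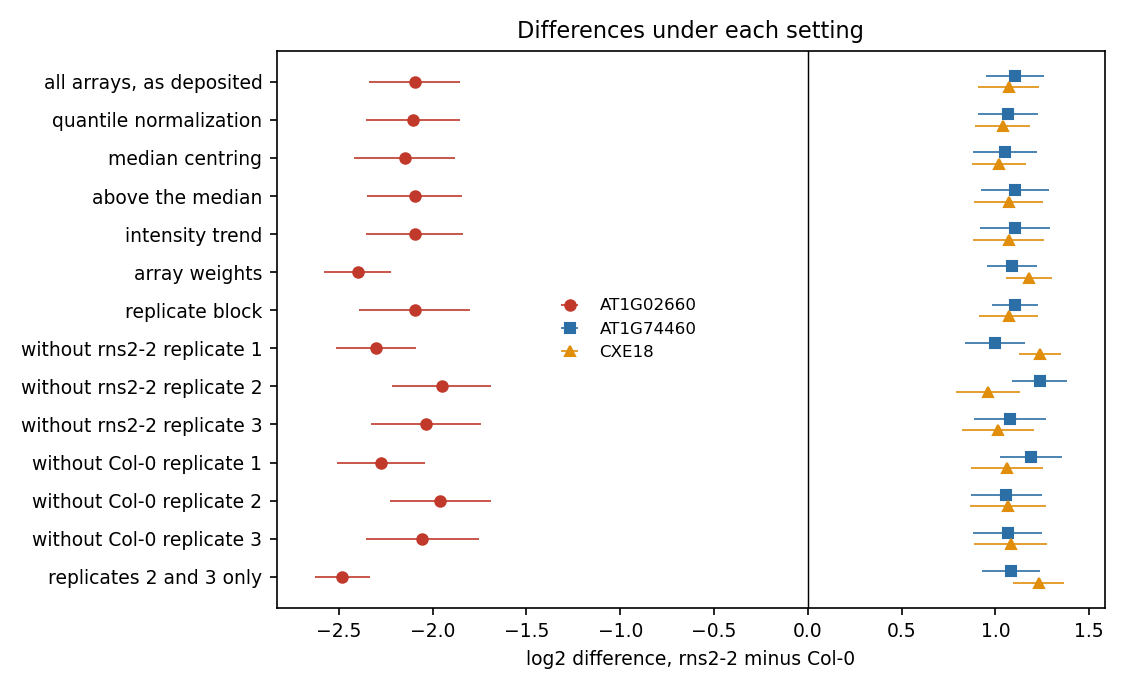
Log2 difference, rns2-2 minus Col-0 (horizontal axis), of the 3 genes with all arrays as deposited and under 13 other settings (rows); bars give the limma SE. AT1G02660 stays between -2.48 and -1.95, AT1G74460 between 0.999 and 1.24, and CXE18 between 0.96 and 1.24.

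To show which transcripts followed the same course over the 6 arrays, each gene was set against 5985 other named single-locus probe sets brighter than the median, by the root mean square (RMS) difference of log2 profiles centred on their own mean. Since each gene was chosen for its genotype difference, its nearest profiles share that difference, and their placing of single arrays likewise follows from the choice. The nearest to AT1G02660 was AT3G04640 (RMS 0.24 log2 units), with 7.41, 6.60 and 7.45 in rns2-2 replicates 1, 2 and 3, against 8.83, 9.26 and 9.10 in those of Col-0. AT1G19020, AT3G45730, AT1G72920 and AT5G66650 followed, with RMS differences from 0.27 to 0.30. These profiles were lower in rns2-2 by log2 differences of -2.22 to -1.63.

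The profile nearest to AT1G74460 was that of EXPA15, an expansin that loosens cell walls (RMS 0.12). EXPA15 had 9.10, 8.60 and 8.99 in rns2-2 replicates 1, 2 and 3, against 7.75, 7.73 and 7.45 in those of Col-0. AT3G56370, AT4G38660, AT3G59670 and AT3G49220 followed, with RMS differences from 0.12 to 0.18. The profile nearest to CXE18 was that of AT5G09460 (RMS 0.11), with 7.78, 8.23 and 8.34 in rns2-2 replicates 1, 2 and 3, against 7.20, 6.93 and 6.94 in those of Col-0. AT1G65010, ATLP-1, a thaumatin-like protein gene, AT4G30020 and UGT72E2, a glycosyltransferase of phenylpropanoid metabolism, followed, with RMS differences from 0.16 to 0.19. None of these 5 had Col-0 arrays as level as those of CXE18. The lists of the 3 genes had no gene in common, which for AT1G02660 followed from its opposite direction.

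**Figure D3:**
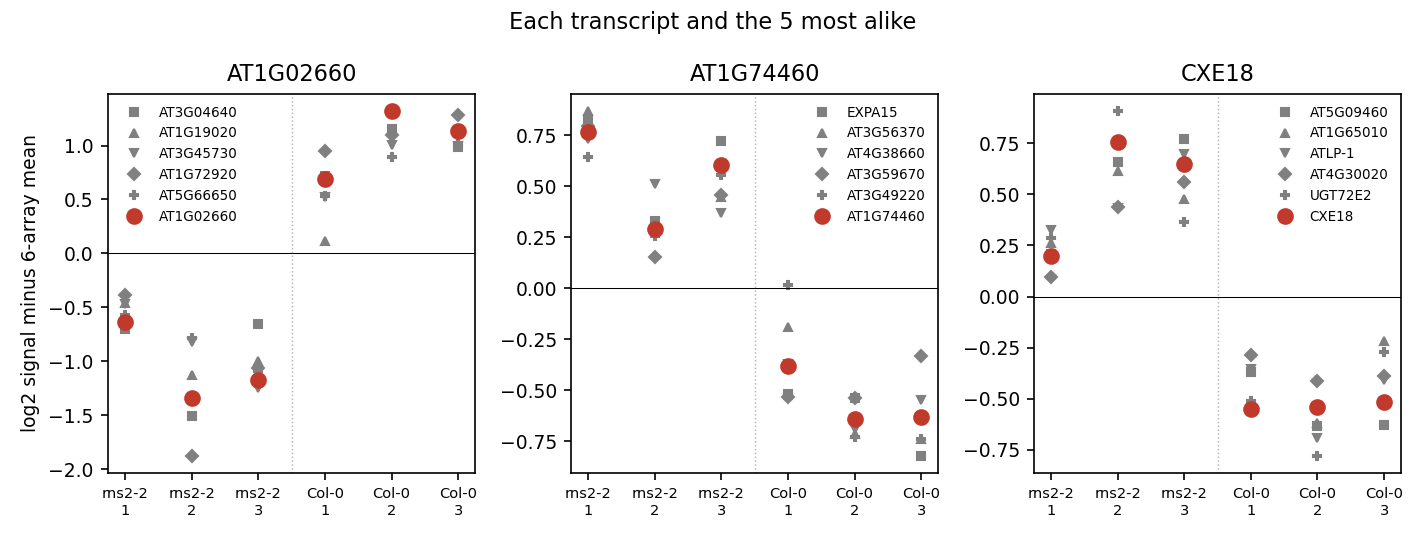
Log2 signal minus the mean over 6 arrays (vertical axis) for each gene (red) and its 5 nearest profiles (grey) in every array (horizontal axis). The rns2-2 arrays lie left of the dotted line and the Col-0 arrays right of it; replicate 1 lies toward the other genotype for AT1G02660 in both genotypes, for CXE18 in rns2-2 and for AT1G74460 in Col-0.

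The relatives of each gene were taken from lists written by locus from general knowledge of the families. The 3 genes were chosen for their difference and the relatives were not. Their ranks by size within a family follow in part from that choice and are description only. In the class 3 lipases, 24 of 42 loci had a named probe set, and 0 of the 23 besides AT1G02660 passed the adjusted test. AT1G02660 had the largest difference of the 24. Of the 23 others, 18 had a log2 difference below 0 and 5 above, with a median of -0.17. Over all 22746 probe sets, 13010 were below 0, with a median of -0.04. Without overlap, 2 of the 23 were higher (8.70%) and 3 lower (13.0%), close to the shares of the whole table.

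Among these relatives, AT3G62590, like AT1G02660 a plastid lipase, overlapped between genotypes, at 5.03, 4.80 and 5.08 in rns2-2 replicates 1, 2 and 3, against 5.21, 4.87 and 5.14 in those of Col-0. Its log2 difference was -0.11 (SE 0.14, limma adjusted p = 0.775), and its signals lay below the array medians. DGL, a galactolipase of the DAD1-like lipases, also lay below the array medians and had a log2 difference of -0.09 (SE 0.13, limma adjusted p = 0.783). The class 3 loci with the smallest unadjusted p were AT2G42690, AT5G50890, AT2G31100 and AT5G67050, and none passed (limma adjusted p 0.388 to 0.471). All but AT2G42690 lay below the array medians. AT2G42690 stood at 10.33, 10.60 and 10.19 in rns2-2 replicates 1, 2 and 3, against 10.08, 9.81 and 9.83 in those of Col-0, higher without overlap but by only 0.47 (SE 0.15). AT5G24210 and AT4G13550 had larger differences, of -1.004 (SE 0.51) and -0.76 (SE 0.35), with overlapping genotypes. These 2 were singled out after their values were seen. For both, rns2-2 replicate 1 was the highest rns2-2 array and Col-0 replicate 1 the lowest Col-0 array, the same placing as for AT1G02660. With replicates 2 and 3 only, 5 of the 23 passed (21.7%, against 14.3% of all probe sets). That setting, here and below, keeps the arrays seen to lie close together. It narrows the spread within genotypes, so its p-values can be too small. The 5 were AT5G24210 at -1.75, AT4G13550 at -1.34, DLAH at -0.80, AT5G50890 at 0.62 and AT5G18640 at 0.56 (limma adjusted p 0.000781 to 0.037).

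In the GDSL lipases, 75 of 112 loci had a named probe set, and 0 of the 74 besides AT1G74460 passed the adjusted test. With a median log2 difference of -0.03, 33 of the 74 were above 0 and 41 below. Without overlap, 4 were higher (5.41%) and 7 lower (9.46%), both below the shares of the whole table. By mean signal, only 27 of the 74 lay above the median of all probe sets. All 7 lower loci lay below that level, and of the 4 higher ones AT4G28780 alone lay above it. By size AT1G74460 came next in the family after AT5G45670 (1.31, SE 0.60) and AT1G29660 (1.25, SE 0.68), both of which overlapped between genotypes. AT5G45670 had 9.46, 9.34 and 9.005 in rns2-2 replicates 1, 2 and 3, against 9.37, 7.03 and 7.46 in those of Col-0, so Col-0 replicate 1 lay among the rns2-2 arrays.

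The GDSL loci with the smallest unadjusted p were AT4G28780, AT3G50400, AT5G33370 and AT1G75880, and none passed (limma adjusted p 0.359 to 0.415). AT4G28780 followed AT1G74460 by size of the difference. It had 8.33, 7.94 and 8.01 in rns2-2 replicates 1, 2 and 3, against 7.71, 6.76 and 7.04 in those of Col-0. It did not overlap between genotypes, and its log2 difference was 0.92 (SE 0.26). AT3G50400 and AT5G33370 had differences of 0.43 (SE 0.14) and 0.53 (SE 0.17), and AT1G75880 had -0.59 (SE 0.20). The signals of AT3G50400 and AT1G75880 lay below the array medians, so their part of background is unknown.

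Some GDSL lipases departed in replicate 1 of either genotype. Col-0 replicate 1 was at least 2-fold above the mean of Col-0 replicates 2 and 3 at 10 of the 74 loci (13.5%), against 3.25% of all probe sets, and at least 2-fold below it at 4 loci, against 3.9%. In rns2-2, replicate 1 stood at least 2-fold above its partners at 8 of the 74, against 3.79% of all probe sets, and below them at 4, against 3.06%. The 10 loci high in Col-0 replicate 1 included AT4G18970, with the largest departure (2.16 log2 units). AT5G45670, AT1G29660, AT2G23540 and AT5G37690 were also among them. Past the adjusted threshold were 4 of the 74 loci (5.41%) without Col-0 replicate 1, against 1.46% of all probe sets. That array was seen to stand apart before it was left out, so p-values without it, here and below, can be too small. With replicates 2 and 3 only there were 13 (17.6%), near the 14.3% of all probe sets. The 4 were AT5G45670, AT4G28780 and AT2G23540, higher in rns2-2, and AT2G38180, lower (limma adjusted p 0.0245 to 0.0477). AT1G74460 was not among the 10: its Col-0 replicate 1 stood 0.25 log2 units above the other Col-0 arrays, and 1.15 below the rns2-2 array of the same number.

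In the carboxylesterase family, 15 of 20 loci had a named probe set, and 0 of the 14 besides CXE18 passed the adjusted test. CXE18, chosen for its difference, had the largest of the 15. Of the 14 others, 7 were above 0 and 7 below, with a median of -0.06, and 1 was higher (7.14%) and 2 lower (14.3%) without overlap. The 2 lower ones were AT5G06570 and AT1G68620, with log2 differences of -0.91 (SE 0.30) and -0.86 (SE 0.31) and limma adjusted p of 0.412 and 0.424. By mean signal, both lay below the median of all probe sets. AT5G06570 had 5.30, 5.51 and 5.40 in rns2-2 replicates 1, 2 and 3, against 5.63, 6.48 and 6.83 in those of Col-0. It passed without Col-0 replicate 1 (limma adjusted p = 0.0379). It was then 1 of the 14 (7.14%), against 1.46% of all probe sets.

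The gibberellin receptors of this family overlapped between genotypes. GID1A, GID1B and GID1C had log2 differences of 0.06 (SE 0.36), -0.17 (SE 0.29) and -0.41 (SE 0.21). With replicates 2 and 3 only, 4 of the 14 passed (28.6%, against 14.3% of all probe sets): GID1B at -0.60 and AT2G03550 at 0.79, and, lower as with all arrays, AT5G06570 at -1.20 and AT1G68620 at -1.23 (limma adjusted p 0.00149 to 0.0274). CXE16 and CXE20, esterases by family, had 0.01 (SE 0.11) and -0.23 (SE 0.17). The other 7 loci ran from -0.13 to 0.32: AT2G03550, AT3G27320, AT1G47480, AT2G45600 and AT1G19190 lay above 0, and AT2G45610 and AT1G49650 below. Of these only AT3G27320 had no overlap, with a difference of 0.22 (SE 0.12) and the rns2-2 arrays above those of Col-0 by 0.02 log2 units.

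**Figure D4:**
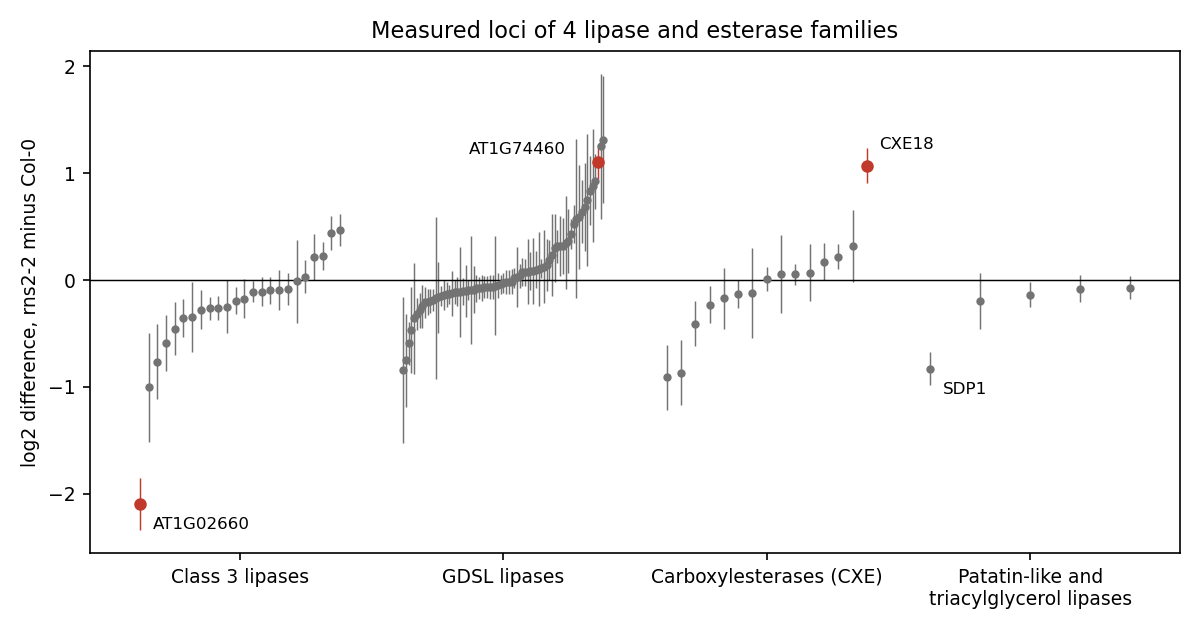
Log2 difference, rns2-2 minus Col-0 (vertical axis), of each measured locus in 4 lipase and esterase families, ordered by size within a family; bars give the limma SE. The 3 genes described are in red and were chosen for their difference. AT1G02660 (-2.10) and CXE18 (1.07) lie at the ends of their families, while AT1G74460 (1.10) lies among GDSL lipases of similar size and larger SE.

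The last family list held patatin-like and triacylglycerol lipases, of which 5 of 13 loci had a named probe set. All 5 were below 0, with a median of -0.14, and 0 passed the adjusted test. Over all 22746 probe sets, 13010 were below 0, with a median of -0.04. By mean signal, only 3 of the 5 lay above the median of all probe sets. SDP1, the lipase that starts the breakdown of storage oil in germinating seeds, had the largest difference. Its log2 signals were 8.33, 8.65 and 8.56 in rns2-2 replicates 1, 2 and 3, against 9.60, 9.16 and 9.28 in those of Col-0. The genotypes did not overlap and stood 0.50 log2 units apart, with a log2 difference of -0.83 (SE 0.16, limma adjusted p = 0.281). With replicates 2 and 3 only, SDP1 passed at -0.61 (limma adjusted p = 0.0229). It was then 1 of the 5 (20%), against 14.3% of all probe sets. SDP1-LIKE lay below the array medians and overlapped, at -0.08 (SE 0.13).

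Over the 4 families, AT5G08460, a GDSL lipase, was the locus with the narrowest space between genotypes, with 4.95, 5.10 and 5.11 in rns2-2 and 5.25, 5.12 and 5.42 in Col-0. Just on the other side, AT3G49050, a class 3 lipase, overlapped by 0.03 log2 units, with 7.43, 7.48 and 7.56 in rns2-2 and 7.53, 7.66 and 7.60 in Col-0. The lack of overlap alone therefore took in differences as small as 0.11 log2 units, as for the GDSL lipase AT5G45910.

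Few genes of the pathways on either side of these enzymes had a named probe set, and only those are counted as measured. A missing name reflects the annotation used, and unnamed probe sets may still read these genes. Of 13 jasmonate synthesis genes, 1 had a named probe set: OPCL1, a CoA ligase of the pathway, with means of 6.83 ± 0.23 for rns2-2, against 7.08 ± 0.25 for Col-0 (SD, n = 3 each; limma adjusted p = 0.619). Of 12 genes of peroxisomal fatty acid breakdown, 1 was measured: AIM1, a multifunctional enzyme of beta-oxidation, with means of 9.83 ± 0.41 for rns2-2, against 10.03 ± 0.31 for Col-0 (SD, n = 3 each; limma adjusted p = 0.780). Of 18 genes of the abscisic acid response, 1 was measured, COR15A, with means of 9.97 ± 2.13 for rns2-2, against 7.10 ± 1.09 for Col-0 (SD, n = 3 each; limma adjusted p = 0.455). All 3 overlapped between genotypes. Methylesterases (18 loci), plastid glycerolipid synthesis and desaturation (15) and cutin and suberin formation (29) had no named probe set and were not analysed here.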

How the data were processed

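The authors deposited 1 log2 signal for each probe set on each array; the scale was read from the values. Per the submitters' processing notes the software was Affymetrix Expression Console, applied to arrays of biotin-labelled RNA amplified from 250 ng total RNA, per the labels' protocols. Its algorithm and whether arrays were normalized to each other are not given in the sources used here. Array medians ran from 6.51 to 6.66. The number of arrays limits the precision. Each limma p-value sets a genotype difference against the spread between arrays of the same genotype, and covers these arrays only.

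The 64 control probe sets were left out, which left 22746. A platform annotation, updated through Entrez identifiers of the RefSeq genes (assembly TAIR10.1, used for names only), paired 13436 probe sets with 1 locus each. A further 503 had several loci and were not named. Another 8730 were not in that annotation and 77 had no locus in the gene table, so their signals carry no name here. The contrast, rns2-2 minus Col-0, was fitted with limma 3.58.1 (lmFit, eBayes) in R 4.3.3 over all 22746 probe sets, with two-sided tests, Benjamini-Hochberg adjustment and a threshold of 0.05. The fit was tested for the direction and size of changes on 5 simulated data sets. All arrays had equal spread there, so the effect of outlying arrays such as replicate 1 was not tested. The rule for named genes gave the 3 genes, 5 nearest profiles each, up to 4 loci per list by unadjusted p, AT3G62590 and the carboxylesterases. Further loci were named outside this rule, such as DGL, AT1G29660, AT5G37690 and AT5G45910. The genes, lists and alternatives were chosen with earlier results of these data known. Alternatives were quantile normalization, median centring, a filter at the median, an intensity trend, array weights, a replicate block, leaving out each array, and replicates 2 and 3 only.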

Additional observations from a re-analysis of the deposited data

How the results depend on the processing

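The log2 differences of AT1G02660, AT1G74460 and CXE18 were -2.30 to -1.95, 0.999 to 1.24 and 0.96 to 1.24 without single arrays; their direction was fixed by the choice of genes whose groups do not overlap. With replicates 2 and 3 only, AT1G02660 stood at -2.48 with a pooled SD of 0.13, and CXE18 had a pooled SD of 0.056. The pooled SDs ran from 0.27 to 0.40 for AT1G02660, 0.14 to 0.23 for AT1G74460 and 0.047 to 0.24 for CXE18 without single arrays; the lowest value of CXE18 was without rns2-2 replicate 1. The number of probe sets past the threshold was 1, but 435 with array weights, 3262 with replicates 2 and 3 only and 1 to 333 without single arrays (32 without rns2-2 replicate 1, 333 without Col-0 replicate 1). Probe sets without overlap numbered 4203, but 1887 above the median, where fewer were counted. They numbered 13525 with replicates 2 and 3 only, and 5513 to 8832 without single arrays; fewer arrays overlap less by construction. With replicates 2 and 3 only, the number past the threshold was 4 carboxylesterases, 5 class 3 lipases, 13 GDSL lipases and 1 patatin-like or triacylglycerol lipase (SDP1). Without single arrays these were 0 to 1, 0, 0 to 4 and 0, and with array weights 1 GDSL lipase passed (AT4G28780). For array weights the cause was not tested. With the replicate block 1 probe set passed, 0 list members passed and the 3 differences were the same; same-numbered arrays deviated together with correlations of 0.06, -0.06 and 0.14, so the numbers were not taken as pairs. No locus of the 4 families had a second named probe set, so averaging probe sets changed nothing.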
